A study of Mus musculus with 12 samples.

Results

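The genes described are 39 transcripts of mitochondrial and peroxisomal fatty acid oxidation, ketone body formation and PPAR alpha target genes, read in the livers of mice given small interfering RNA (siRNA) against Eif3m. They were chosen by name from the 50686 genes of the deposited count table, with no measured value in the rule but with earlier results of these data known. All 39 were present and expressed well enough to be tested. Liver RNA came from FVB/N mice of 6 to 8 weeks that received siRNA in lipid nanoparticles through a tail vein. The dose was 0.5 mg/kg, with 1 injection every 5 days. The groups were Eif3m siRNA at day 9, luciferase control siRNA at day 9, Eif3m siRNA at day 13 and luciferase control siRNA at day 13, with 3 libraries in each of the 4 groups. All mice, controls included, thus carried nanoparticles and an siRNA, and no promoter restricted the siRNA to one cell type. The sources used here do not give sex, feeding state or the hour of collection, and the labels do not say that each library came from a separate animal. P-values therefore measure the spread between these libraries, which may be technical.

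A fatty acid that enters a liver cell is bound by a carrier protein, joined to coenzyme A and passed into mitochondria by the carnitine shuttle, where a cycle of dehydrogenation, hydration, dehydrogenation and thiolysis shortens it. Peroxisomes run a parallel pathway for very long and branched chains, and thioesterases can split acyl-CoA back into free acid and coenzyme A. PPAR alpha is a nuclear receptor that binds fatty acids and, with its partner RXR, raises transcription of many of these genes when the liver burns fat, as in fasting, and acetyl-CoA from the liver is then turned into ketone bodies. The product of Eif3m belongs to eIF3, a translation initiation factor of many subunits.

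Levels are given in CPM, the usual scaling of counts to library size, here with edgeR's TMM factors. The targeted transcript averaged 4.79 ± 0.0859 CPM in the day 9 siRNA livers and 44.8 ± 0.684 CPM in controls of day 9, and 2.37 ± 0.167 CPM in the day 13 siRNA livers and 36.4 ± 4.56 CPM in the day 13 controls (SD, n = 3 each), for Eif3m. The 39 members together took 1.31%, 0.994% and 1.25% of all counts in the day 9 siRNA libraries, against 1.41%, 1.36% and 1.26% in the day 9 controls. At day 13 they took 0.830%, 0.805% and 0.838% in the siRNA libraries, against 1.05%, 1.06% and 0.910% in the controls. Library totals ran from 38783564 to 54538581 counts at day 9 and from 7650269 to 9630027 at day 13. Some libraries held the lowest value of their group for most members. Day 9 siRNA replicate 2 did so for 37 of the 39 members and day 9 control replicate 3 for 23, against 36.3% and 30.2% of all 14248 genes tested. At day 13, siRNA replicate 2 held the lowest value for 28 members and control replicate 3 for 27, against 39.4% and 35.9% of all genes. Control replicate 3 also lay apart from its group on the third principal component (−52.0, against 18 and 15.3), while the day 13 siRNA libraries were spread along it (37.6, −36.9 and 4.68). This pair, day 13 siRNA replicate 2 and control replicate 3, was also left out together.

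The liver label matched the markers of hepatocytes, the main cells of the liver, and the other cell types of the organ were present at far lower levels. The summed level of 9 hepatocyte markers ran from 87350 to 96512 CPM in the day 9 siRNA libraries, against 117315 to 122042 CPM in the day 9 controls. It ran from 101351 to 159939 CPM in the day 13 siRNA libraries, against 175068 to 198628 CPM in the day 13 controls, so the groups did not overlap at either day. Most of this sum was Alb alone, with 88862 of 117355 CPM in day 9 control replicate 1 and 159409 of 195900 CPM in day 13 control replicate 1. Single hepatocyte markers did not all go the same way: Apoa2 and Ttr were lower at day 9, and at day 13, 4 markers were lower and 2 higher. At day 9, 3 of the 9 had a positive log2 fold change, none called, and Hnf4a was higher in every siRNA library than in any control. Summed markers of Kupffer cells, the resident macrophages, ran from 211 to 246 CPM in the day 9 siRNA libraries against 276 to 338 CPM in the day 9 controls, and from 119 to 193 CPM in the day 13 siRNA libraries against 271 to 336 CPM in the day 13 controls. All 7 Kupffer markers were tested, of which 3 were lower at day 9 (42.9%) and 6 at day 13 (85.7%). They did not all go the same way, as 3 had a positive log2 fold change at day 9 and 1 at day 13. Clec4f had 25.8, 21.7 and 26.2 CPM in the day 9 siRNA libraries, against 95.2, 92.9 and 107 CPM in the controls. Adgre1 had 21.0, 17.6 and 21.5 CPM there, against 12.5, 15.6 and 17.0 CPM. None of the 5 adipocyte, 5 muscle and 3 brown adipocyte markers was expressed well enough to be tested, and Mb and Ucp1 had 0 counts in every library. In whole tissue, fewer cells of a type and less RNA per cell cannot be told apart, and the part of these marker levels in the values below was not tested.

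Most members moved little, and those that changed were mainly lower in the siRNA livers. A gene was called at an adjusted p under 0.05 in edgeR's quasi-likelihood test with Benjamini-Hochberg adjustment over the 14248 genes tested. At day 9, 6 members were lower (15.4% of the 39, against 6.84% of all genes tested) and 2 were higher (5.13%, against 5.94% of all genes tested). At day 13, 12 members were lower (30.8%, against 10.9% of all genes tested) and 0 were higher (against 12.8% of all genes tested). At an unadjusted p under 0.05, 1 member was higher at day 13, which was Hadhb, and both DESeq2 and limma-voom called 0 higher. The median log2 fold change of the members, siRNA over control, was −0.17 at day 9 and −0.19 at day 13, against 0.015 and 0.00 for all genes tested. The day 9 median was −0.085 without siRNA replicate 2 and −0.28 without siRNA replicate 1, and the day 13 median was −0.12 without control replicate 2. The day 9 count of lower members was 3 without control replicate 1 or control replicate 2. The count of lower members at day 13 was 16 without control replicate 3 and 9 without the day 13 pair, where the day 9 count of lower members was 9 as well. The day 9 count of higher members was 1 without any of the 3 day 9 controls, day 9 siRNA replicate 1 or 3, day 13 control replicate 1 or day 13 siRNA replicate 3.

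Of the 6 members that were lower at day 9, 5 were lower at day 13 as well, which is 83.3% of the day 9 list and 41.7% of the 12 of day 13. These were Acads, Hadh, Acaa1b, Ehhadh and Acot1, and the days share no library. Over all genes tested, 588 of the 975 that were lower at day 9 were lower at day 13 too (60.3% of them and 37.9% of the 1553 of day 13), so the members' shares stand beside a high background and no test was made of them. Counted by overlap instead of by test, 16 members lay below every control library at day 9 (against 21% of all genes tested) and 3 lay above (against 22.5% of all genes tested). At day 13, 14 lay below (against 16% of all genes tested) and 0 above (against 17.2% of all genes tested). The 24 members called at neither day had log2 fold changes between −0.28 and 0.52 at day 9 and between −0.48 and 0.28 at day 13.

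**Figure D1:**
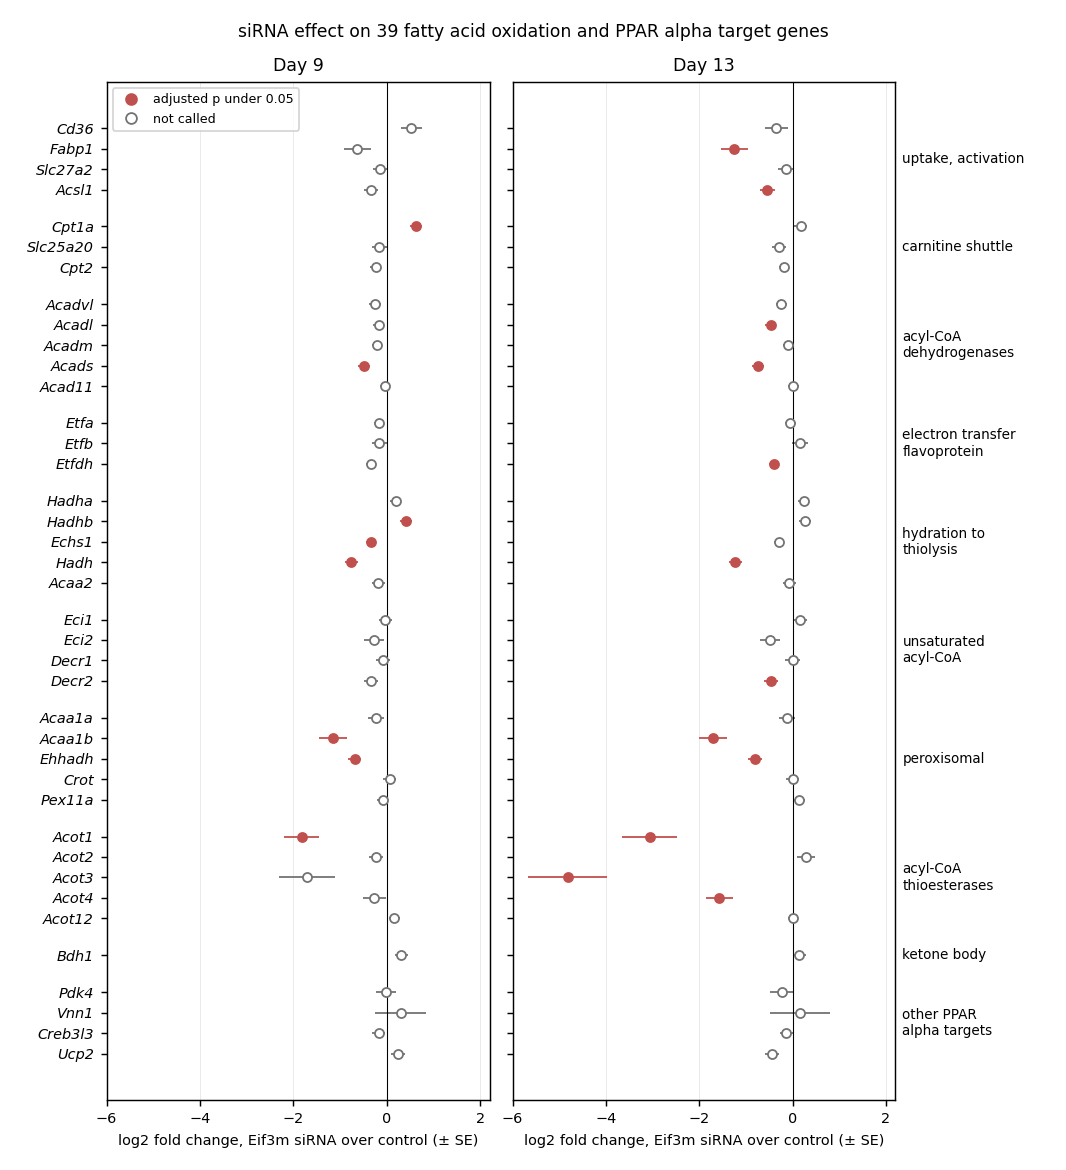
Log2 fold change of each of the 39 members, Eif3m siRNA over control, at day 9 (left) and day 13 (right), with bars of 1 SE from edgeR's quasi-likelihood fit (3 libraries per group) and filled points where the adjusted p was under 0.05. Filled points lie mostly left of 0, and the thioesterases Acot3 and Acot1 lie farthest left at day 13, at −4.82 and −3.06.

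The first role is uptake and activation, where 2 of 4 members were lower at day 13 and none was called at day 9. Fabp1 (ENSMUSG00000054422), the liver fatty acid binding protein that carries fatty acids in the cytosol, was the most abundant member per length of transcript. It had 981, 564 and 956 CPM in the day 13 siRNA libraries, against 2407, 2398 and 1143 CPM in the day 13 controls. Every siRNA library lay below every control, although control replicate 3 came close. Its log2 fold change was −1.25 (adjusted p = 0.00908, SE 0.295), and −1.55 without control replicate 3 (adjusted p = 0.000792). At day 9 Fabp1 had 2310, 1420 and 2317 CPM in the siRNA libraries, against 3336, 3095 and 2958 CPM in the controls. The groups were again apart, but the log2 fold change of −0.63 was not called (adjusted p = 0.183, SE 0.291). It was called without the day 13 pair (−0.65, adjusted p = 0.0143) and with day 9 fitted alone (−0.64, adjusted p = 0.0387).

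Acsl1 (ENSMUSG00000018796), the main acyl-CoA synthetase of liver, had 501, 532 and 567 CPM in the day 13 siRNA libraries and 704, 889 and 747 CPM in the day 13 controls. No siRNA library reached the controls, and the log2 fold change was −0.55 (adjusted p = 0.0229, SE 0.159). The call ended without control replicate 2 (adjusted p = 0.0946) and without siRNA replicate 1 (adjusted p = 0.0735), and was also lost without the pair of siRNA replicate 2 and control replicate 3 (adjusted p = 0.0586). A replicate block within each day ended it as well. Acsl1 shares exon bases with an antisense gene, Gm45244. At day 9 Acsl1 had 917, 559 and 738 CPM in the siRNA libraries and 903, 1005 and 889 CPM in the controls, which overlapped. Slc27a2, a fatty acid transporter and very long chain acyl-CoA synthetase, had log2 fold changes of −0.14 at day 9 and −0.15 at day 13, neither called. Cd36, a fatty acid uptake receptor of the cell surface, stood at 0.52 at day 9 (adjusted p = 0.159) and −0.35 at day 13 (adjusted p = 0.338), also not called.

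Fabp1 is known from rodents as a PPAR alpha target, and its promoter is shown because it held one of the closest matches among the members to DR1, the direct repeat of AGGTCA with 1 base between its copies, to which PPAR alpha and RXR are known to bind. The sequence is the RefSeq stretch before the start of Fabp1 on the plus strand of GRCm38.p6 at chr6:71199629-71199826, with the 13 bases of the match in capitals. They read TGACCTATGgCCT on the plus strand, which is the reverse complement of DR1 with 1 mismatch (lower case), and begin 67 bases before the RefSeq start.
Fabp1: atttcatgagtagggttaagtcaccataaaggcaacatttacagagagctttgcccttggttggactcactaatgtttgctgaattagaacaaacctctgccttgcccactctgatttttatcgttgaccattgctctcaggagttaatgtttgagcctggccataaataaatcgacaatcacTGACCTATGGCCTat

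In the carnitine shuttle, 1 of 3 members was higher at day 9 and none was called at day 13. Cpt1a (ENSMUSG00000024900), the outer membrane carnitine palmitoyltransferase that sets the rate of entry into mitochondria, had 466, 347 and 465 CPM in the day 9 siRNA libraries, against 292, 287 and 249 CPM in the day 9 controls. Each siRNA library exceeded each control, and the log2 fold change was 0.63 (adjusted p = 0.0096, SE 0.137). This call held in all 21 alternative analyses, with adjusted p up to 0.049. At day 13 Cpt1a had 208, 259.6 and 215 CPM in the siRNA libraries and 191, 192 and 225 CPM in the controls. These overlapped, with a log2 fold change of 0.17 (adjusted p = 0.414, SE 0.138).

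The other two members of the shuttle were not called. Cpt2, the carnitine palmitoyltransferase of the inner membrane, had log2 fold changes of −0.24 at day 9 and −0.19 at day 13, and Slc25a20, the carnitine-acylcarnitine translocase between them, had −0.16 and −0.29. The ratio of Cpt1a to Cpt2 counts within a library was 4.37, 4.15 and 4.51 in the day 9 siRNA livers, against 2.5, 2.48 and 2.21 in the day 9 controls. Here the groups lay apart (two-sided exact permutation p = 0.1, the smallest that 3 libraries against 3 allow). At day 13 the ratio averaged 1.97 ± 0.321 in the siRNA livers and 1.55 ± 0.308 in the controls (SD, n = 3 each), and the groups overlapped.

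Among the 5 acyl-CoA dehydrogenases, which take the first electrons from chains of different lengths, Acads was lower at both days and Acadl at day 13. Acads (ENSMUSG00000029545), the short-chain enzyme, had 120.1, 97.2 and 121 CPM in the day 9 siRNA libraries, against 164, 159.8 and 153 CPM in the day 9 controls. At day 13 it had 90.2, 68.5 and 77.3 CPM in the siRNA libraries, against 149, 126 and 122 CPM in the controls. All siRNA libraries lay below all controls of their day. The log2 fold change was −0.50 at day 9 (adjusted p = 0.0208, SE 0.126) and −0.75 at day 13 (adjusted p = 0.00097, SE 0.130). The day 9 call ended without siRNA replicate 2 (adjusted p = 0.0988) or without control replicate 1, 2 or 3 (adjusted p = 0.0700, 0.0605 and 0.0515), and the day 13 call held in all 21 alternatives.

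Acadl (ENSMUSG00000026003), the long-chain enzyme, had 183, 152 and 162 CPM in the day 13 siRNA libraries, against 229, 253 and 207 CPM in the day 13 controls. All siRNA values were the lower ones, and the log2 fold change was −0.47 (adjusted p = 0.0108, SE 0.119). At day 9 the values of Acadl were 228, 183 and 227 CPM in the siRNA libraries and 239.9, 245 and 235 CPM in the controls. All siRNA libraries were lower there too, but the log2 fold change of −0.17 was not called (adjusted p = 0.37). The very long chain enzyme Acadvl (−0.26 and −0.24 at days 9 and 13), the medium-chain enzyme Acadm (−0.22 and −0.10) and Acad11 (−0.05 and 0.02), a dehydrogenase of very long chains, were not called. Acadm had 332, 281 and 339 CPM in the day 9 siRNA libraries and 348, 397 and 364 CPM in the day 9 controls, with no overlap and an adjusted p of 0.205. Acadvl was called at day 13 without control replicate 3 (−0.37, adjusted p = 0.0429) and at day 9 without the day 13 pair (−0.27, adjusted p = 0.0477), in 1 of 21 alternatives at each day.

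The dehydrogenases hand their electrons to the electron transfer flavoprotein, made of the products of Etfa and Etfb, and from there to the oxidoreductase encoded by Etfdh in the inner membrane. Etfdh (ENSMUSG00000027809) had 203, 189 and 199 CPM in the day 13 siRNA libraries, against 248, 291 and 239.9 CPM in the day 13 controls. No value was shared by both ranges, and the log2 fold change was −0.40 (adjusted p = 0.0164, SE 0.108). The call ended without control replicate 2 (adjusted p = 0.078), with day 13 fitted alone (adjusted p = 0.068) and with a replicate block within each day. At day 9 Etfdh had 235, 197 and 233 CPM in the siRNA libraries against 272, 292 and 278 CPM in the controls, also with no overlap, and missed the threshold at −0.34 (adjusted p = 0.0517). It was called in 8 of 21 alternatives, among them without day 13 control replicate 3 (adjusted p = 0.0385), without day 13 siRNA replicate 2 (adjusted p = 0.0466), without both (adjusted p = 0.0229) and with day 9 fitted alone (adjusted p = 0.0274). Etfdh shares exon bases with an antisense gene, 4930579G24Rik. Etfa stood at −0.17 and −0.05 and Etfb at −0.16 and 0.15 at days 9 and 13, none called.

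In the steps from hydration to thiolysis, members changed in both directions: 2 of 5 were lower and 1 higher at day 9, and 1 was lower at day 13. Hadh (ENSMUSG00000027984), the mitochondrial hydroxyacyl-CoA dehydrogenase of medium and short chains, had 248, 173 and 249.5 CPM in the day 9 siRNA libraries, against 369, 389.7 and 374 CPM in the day 9 controls. At day 13 it had 203, 159 and 173 CPM in the siRNA libraries, against 432, 409 and 409 CPM in the controls. The groups lay far apart at both days. The log2 fold change of Hadh was −0.76 at day 9 (adjusted p = 0.00335, SE 0.138) and −1.23 at day 13 (adjusted p = 4.82e-05, SE 0.140), the smallest p of any member at day 13, and both calls held in all 21 alternatives. Hadh was thus 1.69-fold lower at day 9 and 2.34-fold lower at day 13.

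Hadhb (ENSMUSG00000059447), the thiolase subunit of the mitochondrial trifunctional protein for long chains, had 298, 231 and 286 CPM in the day 9 siRNA libraries, against 201, 213 and 198 CPM in the day 9 controls. No control reached the siRNA values, and the log2 fold change was 0.41 (adjusted p = 0.0399, SE 0.122). The call ended without day 9 siRNA replicate 1 or 3, any of the 3 day 9 controls, day 13 control replicate 1 or day 13 siRNA replicate 3, with adjusted p from 0.0521 to 0.178, and with no filter on low counts (adjusted p = 0.0593). A replicate block within each day ended it as well. At day 13 Hadhb had 253, 209.8 and 239 CPM in the siRNA libraries and 189.9, 217 and 176 CPM in the controls, which overlapped (log2 fold change 0.27, adjusted p = 0.135). Hadha, the partner subunit with the hydratase and dehydrogenase activities, had log2 fold changes of 0.19 (adjusted p = 0.318) and 0.24 (adjusted p = 0.167) at days 9 and 13. The ratio of Hadh to Hadha counts was 0.495 ± 0.0560 in the day 9 siRNA livers and 0.962 ± 0.0553 in controls of day 9, and 0.482 ± 0.0419 in the day 13 siRNA livers and 1.33 ± 0.106 in the day 13 controls (SD, n = 3 each). This ratio was lower in every siRNA library than in any control (exact permutation p = 0.1 at each day, the smallest possible).

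Hadha and Hadhb lie head to head on chromosome 5 and share the stretch between their first exons in the GENCODE annotation, which is shown because the pair is read from it in opposite directions. The bases are those of RefSeq on the plus strand of GRCm38.p6 at chr5:30155163-30155247, in the direction of Hadhb, with both copies of the GC box GGGCGG, a motif bound by Sp1, in capitals. The RefSeq starts of the pair are 273 bases apart.
Hadhb: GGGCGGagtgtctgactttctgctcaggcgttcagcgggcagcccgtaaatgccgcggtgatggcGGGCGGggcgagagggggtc

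Echs1 (ENSMUSG00000025465), the short-chain enoyl-CoA hydratase, had 229, 213 and 253 CPM in the day 9 siRNA libraries, against 293, 283 and 303 CPM in the day 9 controls. The day 13 values of Echs1 were 241, 196 and 216 CPM in the siRNA libraries, against 269.6, 274 and 256 CPM in the controls. All siRNA libraries were lower at both days, and the sizes were close: −0.34 at day 9 (adjusted p = 0.0478, SE 0.104) and −0.30 at day 13 (adjusted p = 0.0569, SE 0.105), on either side of the threshold. The day 9 call of Echs1 ended without any 1 of the 6 day 9 libraries, and without day 13 siRNA replicate 3 or day 13 control replicate 1 or 2, with adjusted p from 0.0545 to 0.172. It also ended with upper-quartile scaling (adjusted p = 0.0586), with no filter (adjusted p = 0.0881) and with a replicate block within each day. At day 13 Echs1 was called in 7 of 21 alternatives, among them without day 13 control replicate 3 (adjusted p = 0.0490) and without day 9 siRNA replicate 2 (adjusted p = 0.0487). Echs1 shares exon bases with the antisense gene Paox. Acaa2, the mitochondrial thiolase, was not called, at −0.18 and −0.07.

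The auxiliary enzymes prepare unsaturated chains for the cycle, and 1 of 4 was called, at day 13. Decr2 (ENSMUSG00000036775), the peroxisomal dienoyl-CoA reductase, had 159, 129 and 148 CPM in the day 13 siRNA libraries, against 212, 196 and 194 CPM in the day 13 controls. Again all siRNA libraries were lower, and the log2 fold change was −0.47 (adjusted p = 0.0396, SE 0.153). The call ended without siRNA replicate 2 or 3 (adjusted p = 0.115 and 0.089) or without control replicate 1 or 2 (adjusted p = 0.117 and 0.0749), and without the pair of siRNA replicate 2 and control replicate 3 (adjusted p = 0.132). A replicate block within each day ended it as well. The mitochondrial reductase Decr1 (−0.08 and −0.00 at days 9 and 13) and the enoyl-CoA isomerases Eci1 (−0.03 and 0.15) and Eci2 (−0.28 and −0.48) were not called. Without control replicate 3, Eci2 was called at day 13 at −0.71 (adjusted p = 0.0203), its only call in 21 alternatives.

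In the peroxisomal group 2 of 5 members were lower at both days. Ehhadh (ENSMUSG00000022853), the bifunctional hydratase and dehydrogenase of peroxisomes, had 262, 164 and 223 CPM in the day 9 siRNA libraries, against 355, 355 and 337 CPM in the day 9 controls. The day 13 values of Ehhadh were 172, 175 and 189.8 CPM in the siRNA libraries, against 299.7, 330.0 and 309 CPM in the controls. The groups were apart at both days. The log2 fold change of Ehhadh was −0.69 at day 9 (adjusted p = 0.00576, SE 0.139) and −0.81 at day 13 (adjusted p = 0.00102, SE 0.140), and both calls held in all 21 alternatives.

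Acaa1b (ENSMUSG00000010651), a peroxisomal thiolase, had 411, 181 and 351 CPM in the day 9 siRNA libraries, against 879, 652 and 554 CPM in the day 9 controls. At day 13 it had 169.5, 120.2 and 135 CPM in the siRNA libraries, against 544, 520.0 and 326 CPM in the controls. Every siRNA library lay below every control of its day. The log2 fold change was −1.14 at day 9 (adjusted p = 0.0273, SE 0.297) and −1.71 at day 13 (adjusted p = 0.00192, SE 0.304). The day 9 call ended without siRNA replicate 2 or 3 (adjusted p = 0.0596 and 0.0589) or control replicate 1 or 2 (adjusted p = 0.0965 and 0.0572), with no filter (adjusted p = 0.0937) and with day 9 fitted alone (adjusted p = 0.0598), and the day 13 call held in all 21 alternatives.

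Acaa1a, the close copy of Acaa1b, stood at −0.23 and −0.12 at days 9 and 13 and was not called. The coding sequences of the pair were 96.5% identical over 1275 bases, with an identical run of 327 bases, so the estimated counts can divide reads between them and both values are uncertain. The ratio of Acaa1b to Acaa1a counts was 1.73 ± 0.448 in the day 9 siRNA livers and 3.33 ± 0.530 in controls of day 9, and 0.997 ± 0.0434 in the day 13 siRNA livers and 2.96 ± 0.347 in the day 13 controls (SD, n = 3 each). Crot, the peroxisomal carnitine octanoyltransferase (0.06 and −0.00), and Pex11a, which takes part in peroxisome division (−0.09 and 0.14), were not called.

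**Figure D2:**
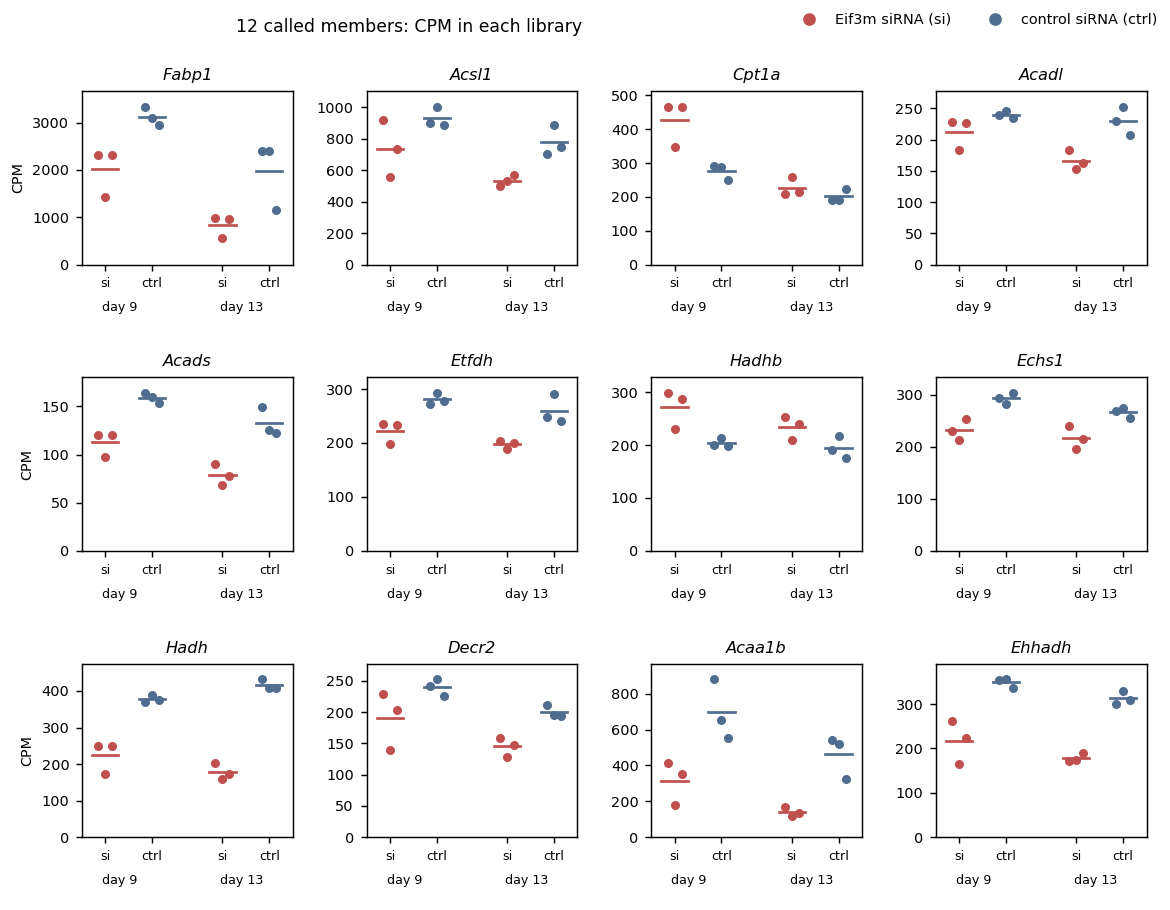
CPM in each library for the 12 called members outside the thioesterase group, with 1 panel per gene, siRNA libraries left of the controls within each day, points for the 3 libraries of a group and a bar at their mean. Hadh, Ehhadh and Acads show siRNA points below all control points at both days, while Cpt1a shows siRNA points above the controls at day 9 and overlap at day 13.

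The acyl-CoA thioesterases held the largest log2 fold changes among the members, that of Acot1 at day 9 and those of Acot3 and Acot1 at day 13. Acot1, Acot2, Acot3 and Acot4 form a cluster of related copies on the plus strand of chromosome 12, in the order Acot2, Acot1, Acot4 and Acot3. Acot1 encodes the cytosolic enzyme, Acot2 the mitochondrial one, and Acot3 and Acot4 peroxisomal ones. Of 5 thioesterase members, 1 was lower at day 9 and 3 at day 13, and none was higher.

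Acot1 (ENSMUSG00000072949, mm10 chr12:84009490-84018371) had 6.91, 2.38 and 5.47 CPM in the day 9 siRNA libraries, against 18.1, 19.1 and 15 CPM in the day 9 controls. The day 13 values of Acot1 were 0.559, 1.3 and 1.1 CPM in the siRNA libraries, against 10.8, 11.4 and 4.01 CPM in the controls, where control replicate 3 was the lowest. Even so, siRNA and control values were apart at both days. The log2 fold change of Acot1 was −1.83 at day 9 (adjusted p = 0.00982, SE 0.375) and −3.06 at day 13 (adjusted p = 0.00341, SE 0.590), and both calls held in all 21 alternatives. The day 13 siRNA values rest on 4, 14 and 10 counts.

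Acot3 (ENSMUSG00000021228, mm10 chr12:84052144-84060402) had 2.10, 2.04 and 1.42 CPM in the day 13 siRNA libraries, against 68.6, 29.5 and 58.2 CPM in the day 13 controls. The highest siRNA value was thus far below the lowest control value. The log2 fold change was −4.82 (adjusted p = 0.00333, SE 0.844), or 28.2-fold lower, on 15, 22 and 13 counts in the siRNA libraries. Without the pair of siRNA replicate 2 and control replicate 3 it was −4.85 and no longer called (adjusted p = 0.0563). At day 9 Acot3 had 57.5, 7.57 and 39.3 CPM in the siRNA libraries, against 127, 82.0 and 130.2 CPM in the controls. All siRNA libraries were lower, replicate 2 by far the most, and the log2 fold change of −1.70 was not called (adjusted p = 0.102, SE 0.601). Without that replicate it was −1.23 and called (adjusted p = 0.0468).

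Acot4 (ENSMUSG00000052392, mm10 chr12:84038379-84048601) had 7.97, 12.7 and 8.43 CPM in the day 13 siRNA libraries, against 31.9, 25.4 and 30.0 CPM in the day 13 controls. The groups did not overlap, and the log2 fold change was −1.57 (adjusted p = 0.0017, SE 0.283). At day 9 it had 55.0, 25.2 and 52.6 CPM in the siRNA libraries and 52.2, 49.3 and 58.2 CPM in the controls. These overlapped, with a log2 fold change of −0.27 (adjusted p = 0.524, SE 0.243). Exons of Acot3 and Acot4 overlap those of Gm49366 on the same strand and of 4732463B04Rik on the other, and a share of their counts may belong to those genes.

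Acot2 (mm10 chr12:83987861-83993873) had 7.86, 6.17 and 8.57 CPM in the day 9 siRNA libraries and 9.08, 7.99 and 9.46 CPM in controls of day 9, and 9.37, 10.1 and 8.87 CPM in the day 13 siRNA libraries and 9.96, 6.84 and 6.61 CPM in the day 13 controls. The groups overlapped at both days, and the log2 fold changes were −0.23 (adjusted p = 0.376) and 0.28 (adjusted p = 0.309). The coding sequences of Acot1 and Acot2 were 95.2% identical, with an identical run of 273 bases, while other pairs of the cluster were between 75.2% and 84% identical. Counts of Acot1 and Acot2 are therefore uncertain in the way they were divided. Their ratio was 0.635 ± 0.246 in the day 9 siRNA livers and 1.99 ± 0.402 in controls of day 9, and 0.104 ± 0.0383 in the day 13 siRNA livers and 1.12 ± 0.531 in the day 13 controls (SD, n = 3 each), with no overlap at either day. Acot12, an acetyl-CoA thioesterase outside the cluster, was not called, at 0.16 and 0.00.

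The stretch before the start of Acot4 is shown because it held a match to DR1 within the cluster. It is RefSeq sequence on the plus strand of GRCm38.p6 at chr12:84038129-84038378, with the match in capitals. The 13 bases end at the last base before the start and read TGACCTTTGgCCg, the reverse complement of DR1 with 2 mismatches (lower case).
Acot4: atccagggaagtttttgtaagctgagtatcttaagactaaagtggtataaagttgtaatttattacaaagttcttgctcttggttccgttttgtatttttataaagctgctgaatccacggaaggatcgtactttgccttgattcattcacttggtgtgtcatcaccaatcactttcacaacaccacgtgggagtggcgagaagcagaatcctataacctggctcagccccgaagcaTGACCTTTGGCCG

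**Figure D3:**
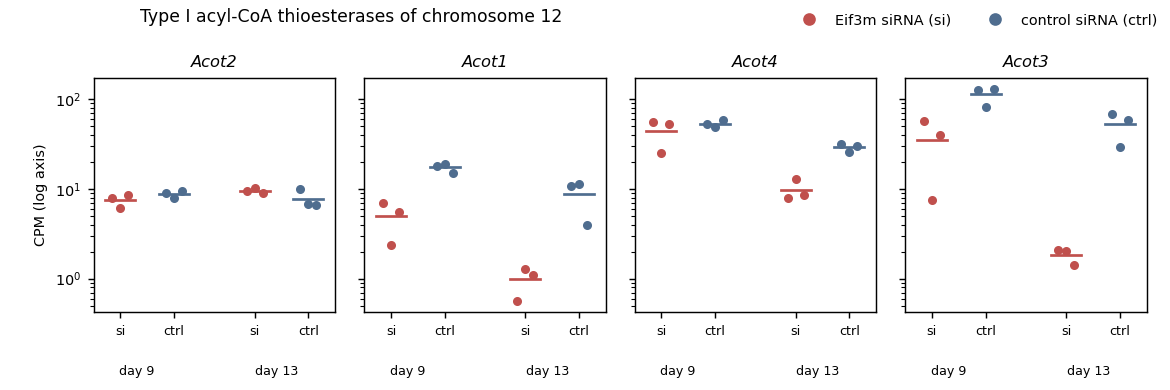
CPM on a log axis for the 4 thioesterase genes of the chromosome 12 cluster in their order along it, with siRNA libraries left of the controls within each day, points for the 3 libraries of a group and a bar at their mean. Acot2 stays between 6.17 and 10.1 CPM in all groups, and Acot3 lies at 1.42 to 2.10 CPM in the day 13 siRNA libraries against 29.5 to 68.6 CPM in the day 13 controls.

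Ketone body formation and the remaining PPAR alpha targets gave no call at either day with all libraries. Bdh1, which interconverts acetoacetate and hydroxybutyrate, had 394, 318 and 389 CPM in the day 9 siRNA libraries, against 308, 303 and 275 CPM in the day 9 controls. All siRNA libraries were higher, but the log2 fold change of 0.31 did not pass (adjusted p = 0.16), and at day 13 it was 0.14 (adjusted p = 0.501). Ucp2, a carrier of the inner mitochondrial membrane, had 35, 25.5 and 36.4 CPM in the day 13 siRNA libraries and 48.0, 44.9 and 38.8 CPM in the day 13 controls. Both groups were apart, and at −0.45 it was just short of the threshold (adjusted p = 0.0501, SE 0.154), while at day 9 it stood at 0.24 (adjusted p = 0.319). Its day 13 value was called in 7 of 21 alternatives, among them without day 13 control replicate 3 (−0.55, adjusted p = 0.0280) and without day 9 siRNA replicate 2 (−0.46, adjusted p = 0.0462).

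Pdk4, the kinase that shuts off pyruvate oxidation in fasting, was the least abundant member per length of transcript, with 3.37, 2.97 and 2.68 CPM in the day 9 siRNA libraries and 2.78, 2.79 and 3.55 CPM in the day 9 controls, which overlapped. Its log2 fold changes were −0.01 and −0.24. Vnn1, a pantetheinase, varied more between libraries of a group than between groups, with 8.11, 5.84 and 17.6 CPM in the day 13 siRNA libraries and 8.75, 10.3 and 9.31 CPM in the day 13 controls. Creb3l3, a liver transcription factor active in fasting, stood at −0.17 and −0.14 and was not called.

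Whether the effect of the siRNA differed between the days was tested as the day 13 effect minus the day 9 effect. Day 9 and day 13 libraries carry different codes in their titles, and the day 13 libraries were shallower. Each siRNA effect was taken within its own day, but a difference between the days cannot be told apart from a difference between these library sets. edgeR called 0 of the 39 members higher (against 0.898% of all genes tested) and 0 lower (against 1.66% of all genes tested), or 2.55% of all genes in either direction. Of the members, 6 had an unadjusted p under 0.05, limma-voom called 0, and DESeq2 called Acot3 and Acot4 lower. The 6 were Cd36, Cpt1a, Hadh, Acot3, Acot4 and Ucp2, all with a more negative effect at day 13. The smallest adjusted p was that of Acot4, at 0.0834 for a difference of −1.30. Acot3 had −3.12 (adjusted p = 0.153) and Cpt1a −0.46 (adjusted p = 0.23). Without day 9 siRNA replicate 2, the differences of Acot3 (−3.60, adjusted p = 0.00632) and Acot4 (−1.60, adjusted p = 0.00601) were called. Members called at 1 day only were thus not shown by edgeR to differ between the days with all libraries. DESeq2 called 2 of them, Acot3 and Acot4.

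Promoter motifs were counted in RefSeq windows of 250 bases before and 50 bases from the start on, on both strands, for 36 of the 39 members with 40 windows. A DR1 match with up to 2 mismatches was found in 8 windows (20%, against 3.86% of 32851 windows of all genes), those of Fabp1, Acot12, Acot4, Cd36, Creb3l3, Echs1, Etfa and Slc25a20. Of these 8 genes, Fabp1, Acot4 and Echs1 were called at a day and the other five at neither. With at most 1 mismatch there were 2 windows (5%, against 0.554% of all), Fabp1 and Acot12. The GC box GGGCGG stood in 65% of the members' windows (35.7% of all), the CCAAT box in 50% (37.4% of all) and the TATA box TATAAA in 5% (13.6% of all). The letters come from the reference mouse genome, not from FVB/N, and no test was made of these shares.

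Neighbouring genes of the same pathways were read from lists of other genes, with the share of each list called given in brackets. Of all genes tested, 5.94% were higher and 6.84% lower at day 9. At day 13, 12.8% were higher and 10.9% lower. Of 33 other genes of mitochondrial fatty acid and acyl-CoA metabolism, 15 were lower (45.5%) and 1 higher (3.03%) at day 9. At day 13, 15 were lower (45.5%) and 1 higher (3.03%). The median log2 fold changes were −0.34 and −0.44, against 0.015 and 0.00 for all genes tested. Ivd, the dehydrogenase of the leucine pathway, averaged 83.8 ± 6.58 CPM in the day 13 siRNA livers and 172 ± 9.18 CPM in the day 13 controls (SD, n = 3 each), a log2 fold change of −1.04 (adjusted p = 1.84e-05). Acacb, whose product makes the malonyl-CoA that inhibits Cpt1a, averaged 18 ± 1.83 CPM in the day 9 siRNA livers and 96.8 ± 34.7 CPM in the day 9 controls (SD, n = 3 each), or −2.43 (adjusted p = 0.000484), and −2.20 at day 13 (adjusted p = 0.000424). Ivd, Acacb and Echdc1, an enzyme that removes ethylmalonyl-CoA, were lower at both days.

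Of 44 other peroxisomal genes tested, 15 were lower at day 9 (34.1%, median −0.25). At day 13, 16 were lower (36.4%) and 7 higher (15.9%), with a median of −0.26. Hacl1, a lyase of the breakdown of branched chains, stood at −1.47 (adjusted p = 7.27e-05) and −1.58 (adjusted p = 1.1e-05), so it was lower at both days.

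Of 8 other ketone body genes tested, 2 were higher (25%) and 1 lower (12.5%) at day 9, with a median of −0.20. At day 13, 1 was higher (12.5%) and 3 lower (37.5%), with a median of −0.42. Aacs, which activates acetoacetate for lipid synthesis, was lower at both days, at −2.13 (adjusted p = 0.000997) and −3.00 (adjusted p = 7.05e-05), and Slc16a6, known from zebrafish as an exporter of ketone bodies from the liver, was higher, at 1.12 (adjusted p = 0.00336) and 0.85 (adjusted p = 0.0157).

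Of 21 PPAR receptors and their coregulators, 1 was higher and 1 lower at day 9 (4.76% each, median −0.024). At day 13, 2 were higher and 2 lower (9.52% each, median 0.12). Each of these shares lay below that of all genes tested. Ppara had 137, 105 and 111 CPM in the day 9 siRNA libraries and 106, 116 and 101 CPM in controls of day 9, and 23.9, 72.3 and 27 CPM in the day 13 siRNA libraries and 29.5, 31.3 and 77.4 CPM in the day 13 controls. The groups overlapped, and the day 13 libraries with the high values were siRNA replicate 2 and control replicate 3. Ppargc1a, the coactivator PGC-1 alpha, was lower at day 9 at −0.57 (adjusted p = 0.0158), and Lpin1, a phosphatidate phosphatase that also assists it, was lower at day 13 at −0.95 (adjusted p = 0.0163).

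Of 29 other PPAR alpha targets tested, 1 was higher (3.45%) and 6 lower (20.7%) at day 9. At day 13, 4 were higher (13.8%) and 7 lower (24.1%), and the median was −0.13 at each day. The targets did not share a direction. The hormone gene Fgf21 averaged 5.54 ± 2.0 CPM in the day 9 siRNA livers and 0.85 ± 0.431 CPM in the day 9 controls (SD, n = 3 each), a log2 fold change of 2.71 (adjusted p = 0.00316). Retsat, a retinol saturase, averaged 149 ± 40.2 CPM in the day 9 siRNA livers and 298 ± 25.1 CPM in the day 9 controls (SD, n = 3 each), or −1.0 (adjusted p = 0.00193). The omega-hydroxylase gene Cyp4a14 averaged 74.5 ± 22.6 CPM in the day 13 siRNA livers and 20.8 ± 1.92 CPM in the day 13 controls (SD, n = 3 each), or 1.84 (adjusted p = 0.0054). Its relative Cyp4a10 was lower at day 9, at −0.67 (adjusted p = 0.0161).

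Of 10 genes of lipolysis and lipophagy, which release fatty acids from stored fat, 3 were lower at day 9 (30%). At day 13, 3 were lower (30%) and 1 higher (10%), and the median was −0.19 at each day. The carboxylesterase gene Ces1d averaged 176 ± 24.4 CPM in the day 13 siRNA livers and 789 ± 103 CPM in the day 13 controls (SD, n = 3 each), or −2.17 (adjusted p = 3.14e-05), and was lower at day 9 at −1.42 (adjusted p = 0.00142).

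Genes known to follow feeding, fasting and the hour of day were read beside the members. Of 15 genes raised by fasting, 4 were higher (26.7%) and 2 lower (13.3%) at day 9, with Pck1 at 1.5 and G6pc at 2.37. At day 13, 3 were higher (20%) and 2 lower (13.3%), and the medians at days 9 and 13 were 0.29 and 0.22. Of 13 genes raised by feeding, 8 were lower (61.5%) and 1 higher (7.69%) at each day (median −0.82 and −0.78). Fasn, the fatty acid synthase, stood at −1.83 at day 9. Of 18 clock genes tested, 1 was lower at day 9 (5.56%, against 6.84% of all genes tested). At day 13, 3 were lower (16.7%, against 10.9%) and 1 higher (5.56%, against 12.8%), with Per1 at −1.67. The clock medians at days 9 and 13 were −0.048 and −0.36. Libraries of the same group differed in some of these genes. Arntl, a clock gene, had 3.63, 14.1 and 3.03 CPM in the day 13 controls. It had 8.81, 8.44 and 20.7 CPM in the day 13 siRNA libraries and 1.2, 3.43 and 1.11 CPM in those of day 9. Day 9 siRNA replicate 2 also held the lowest value for 37 members. Fasn had 858, 462 and 714 CPM in the day 13 controls. The clock gene Nr1d1 differed little in the day 13 siRNA libraries, with 183, 182 and 178 CPM. Feeding state and hour are not given for the libraries, and their part in the members' values was not tested.

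**Figure D4:**
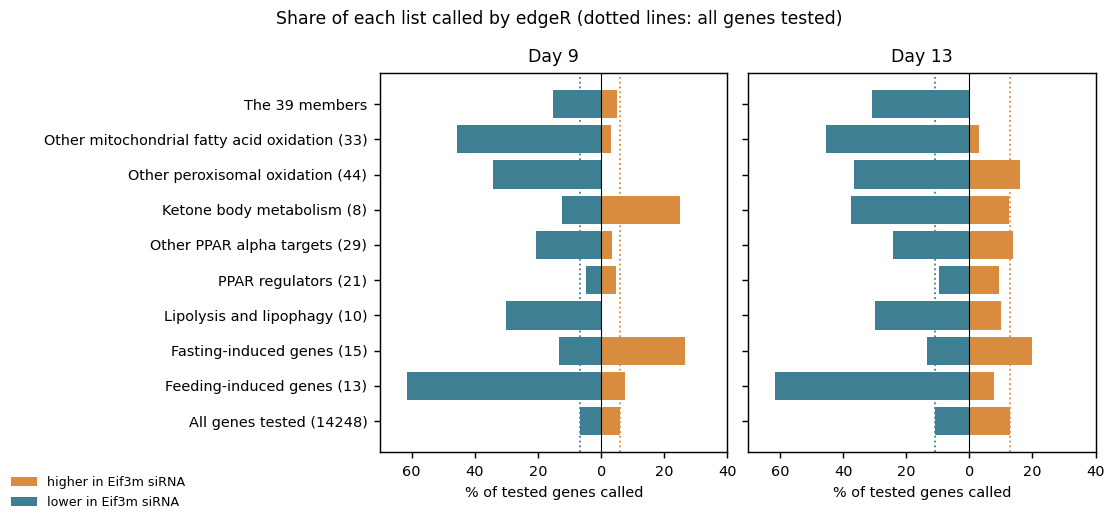
Share of each list called by edgeR at day 9 (left) and day 13 (right), with bars to the left for genes lower and to the right for genes higher in the Eif3m siRNA livers, the number of genes tested in brackets, and dotted lines at the shares of all 14248 genes. The 39 members reach 15.4% lower at day 9 and 30.8% lower at day 13, between the 45.5% of the other mitochondrial list and the 6.84% and 10.9% of all genes.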

How the data were processed

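Liver messenger RNA was sequenced in 12 libraries, 3 per group. The authors deposited expected counts per Ensembl gene, all whole numbers, so they were taken as rounded RSEM estimates and used as they stood. STAR 2.5.3a, RSEM 1.3.0 and the build mm10 are named per the submitters' processing notes, while the sources used here do not give strand setting, annotation release or filters. Symbols, positions and overlaps came from GENCODE M21 and promoter windows from RefSeq (GRCm38.p6).

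Genes were kept with filterByExpr of edgeR 4.0.16 (minimum count 10), leaving 14248, with TMM scaling. The test was edgeR's quasi-likelihood test (robust) fitted to the 4 groups of 12 libraries (8 residual degrees of freedom), two-sided, with Benjamini-Hochberg adjustment over all genes and a threshold of 0.05. SE is the absolute log2 fold change over the square root of F. Ratios within a library used exact permutation tests, and with 3 libraries against 3 none can go below 0.1. Levels per length divide CPM by the transcript with the longest coding sequence. Coding identity came from pairwise alignment.

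Alternatives were DESeq2 1.42.0 size factors, upper-quartile scaling, no filter, a mean CPM of 5 or more, limma-voom (limma 3.58.1), DESeq2 itself, a replicate block within each day, each day alone and each library left out. Leaving out day 13 siRNA replicate 2 and control replicate 3 together was added after seeing the data. Scripts were checked with simulated counts. Members called at a day are given in every library, Eif3m and Ppara are named whatever their values, and other genes come from the 4 smallest p of each list and day. Some genes that this rule names are not reported here. The members and lists were chosen with earlier results of these data known. Libraries within each group differed by more than sampling noise. R 4.3.3, Python 3.11.15 and matplotlib 3.10.9 were used.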

Additional observations from a re-analysis of the deposited data

Results flagged for a closer look

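By edgeR's test of the difference between the days, 0 of the 39 members were called at an adjusted p under 0.05. Of the genes of the other lists and the cell type markers, 12 were called. Of all genes tested, 2.55% were called, and the members were not compared with the other lists by a test. Time and library set cannot be told apart in these differences. In the pathway lists the day 13 effect was more positive than the day 9 effect for Acox2 (by 0.90 on the log2 scale), a peroxisomal oxidase of bile acid intermediates, and Cyp4a10 (by 1.04). It was more negative for Acsm5 (−0.61), Aqp9 (−0.64), the glycerol channel of hepatocytes, G6pc (−2.64), glucose-6-phosphatase, and Per1 (−2.56), a clock gene. Among cell type markers the difference was −1.53 for Adgre1 and −1.39 for Csf1r of the Kupffer cell list. It was −1.64 for Ccr2 and −2.0 for Lyz2 of the list of monocytes and infiltrating macrophages, called monocyte markers below. It was −2.07 for Lyve1 of endothelium and 1.71 for Sox9 of bile duct cells. Of the 5 bile duct markers, 4 had a negative difference, and Sox9 rested on 16, 14 and 18 counts in the day 13 controls. Ccr2 rested on 10, 19 and 16 counts in the day 13 controls and on 14, 16 and 9 in the day 13 siRNA libraries. Of the 7 Kupffer markers, 3 had a positive difference and 4 a negative one. The difference was negative for all 7 monocyte markers and for 6 of 7 endothelial ones. Lyz2 averaged 101 ± 7.06 CPM in the day 9 siRNA livers and 42.0 ± 4.50 CPM in the day 9 controls, and 66.4 ± 8.30 CPM in the day 13 siRNA livers and 111 ± 20 CPM in the day 13 controls (SD, n = 3 each). The summed monocyte markers ran from 117 to 133 CPM in the day 9 siRNA libraries against 49.6 to 64.2 CPM in the day 9 controls, and from 70.3 to 90.2 CPM in the day 13 siRNA libraries against 115 to 158 CPM in the day 13 controls. Lyz2 made up most of that sum in every library. The part of these cells in the members' values was not tested.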

How the results depend on the processing

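Of the 8 members called at day 9, Cpt1a, Hadh, Ehhadh and Acot1 were called in all 21 alternatives, and of the 12 called at day 13, Fabp1, Acadl, Acads, Hadh, Acaa1b, Ehhadh, Acot1 and Acot4 were. No called member changed sign in any alternative. The count of members higher at day 9, 2 in the analysis as reported, was 1 with no filter and 1 with the replicate block, and 1 to 2 with each library left out. The count lower at day 9 was 3 to 7 with each library left out and 4 with no filter. The count lower at day 13 was 9 to 16 with each library left out and 9 without both day 13 siRNA replicate 2 and day 13 control replicate 3. For the difference between the days the count lower was 2 with DESeq2 and 0 to 2 with each library left out. Replicate numbers were not shown to pair the libraries. Deviations of same-numbered libraries correlated at −0.109, −0.158 and 0.158 at day 9 and at 0.0811, −0.0671 and −0.0133 at day 13. Some libraries correlated best with their own number and others did not. With 3 libraries per group these correlations cannot exclude a pairing. With the replicate block, 6 members were lower at day 9 and 9 at day 13. Day 13 libraries were shallower, and Acot1 and Acot3 rested there on 4 to 22 counts per siRNA library. Standard errors cover the spread between libraries only, and shared reads between copies and overlapping genes limit Acot1 to Acot4, Acaa1a and Acaa1b.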
